A study of Mus musculus with 28 samples.

Results

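Melanocyte pigment genes were followed across leukocytes sorted from mouse tumours. The set holds 10 genes of 17097 measured: Tyr, Tyrp1, Dct, Mlana, Pmel, Slc45a2, Oca2, Rab38, Mitf and Sox10. They were chosen by name, as the enzymes, melanosome proteins, transporters and transcription factors of the pigment cell lineage, and all 10 had a probe set on the array. Earlier results of these data were known when they were chosen. Where a gene had several probe sets, the one with the highest mean over the 28 arrays was used, and the others are given further on.

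The arrays measured total RNA from tumour-infiltrating cells that carry CD45, the surface protein of leukocytes. B16.F10 (here B16) is a mouse melanoma line, and MC38 is a mouse colon carcinoma line. All hosts carried Foxp3Cre-YFP, an allele that makes Cre recombinase and a yellow fluorescent protein in cells that express Foxp3, chiefly regulatory T cells. Hosts with Foxp3Cre-YFP and no floxed Nrp1 are called control, and Nrp1L/LFoxp3Cre-YFP hosts, in which the floxed Nrp1 gene is lost in Foxp3-expressing cells, are called Nrp1-deleted. In each genotype, B16 tumours gave 2 arrays from an early day, 2 from day 12 and 3 from day 18, and MC38 tumours gave 2 arrays from day 6, 3 from day 12 and 2 from day 18. The early B16 arrays are labelled day 8 in their titles and day 6 in their source names, so they are called early here. The labels give no age for the mice and do not say whether the arrays of a group came from separate or pooled mice, so the p-values measure only the spread between these arrays, which may be technical.

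Melanin is made in melanosomes, organelles of pigment cells related to lysosomes. Tyrosinase (Tyr) catalyses the rate-limiting step, from tyrosine; dopachrome tautomerase (Dct) and Tyrp1 act on later intermediates; Pmel forms the fibrils on which melanin is laid down. Mitf is the transcription factor that binds an E-box in the promoters of these genes, and Sox10 acts on Mitf and on several of the same promoters. Melanoma cells often keep this programme. Leukocytes are not known for the pigment enzymes, whereas Mitf is also used by macrophages, osteoclasts and mast cells.

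The promoters of the tyrosinase family are shown because they carry the E-box by which Mitf is known to act on them. RefSeq promoter windows of GRCm38.p6, from 250 bases before to 50 bases after the start of the gene, matched 5 of the 10 genes (Tyr, Tyrp1, Dct, Mitf and Oca2). The windows below are those of Tyr at chr7:87493463-87493762 on the minus strand, Tyrp1 at chr4:80833963-80834262 on the plus strand and Dct at chr14:118052197-118052496 on the minus strand, each written 5′ to 3′ along the gene. Capitals mark the letters CATGTG on either strand.
Tyr: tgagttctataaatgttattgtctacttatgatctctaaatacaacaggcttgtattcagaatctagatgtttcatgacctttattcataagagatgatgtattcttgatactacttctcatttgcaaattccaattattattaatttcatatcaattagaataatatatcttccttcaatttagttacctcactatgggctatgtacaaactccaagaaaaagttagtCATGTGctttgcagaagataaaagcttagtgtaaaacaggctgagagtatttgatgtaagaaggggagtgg
Tyrp1: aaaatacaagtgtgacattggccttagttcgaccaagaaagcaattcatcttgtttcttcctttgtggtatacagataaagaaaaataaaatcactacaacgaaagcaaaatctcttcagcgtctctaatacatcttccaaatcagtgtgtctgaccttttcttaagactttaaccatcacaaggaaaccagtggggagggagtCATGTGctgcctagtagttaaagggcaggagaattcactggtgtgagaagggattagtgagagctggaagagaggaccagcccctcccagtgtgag
Dct: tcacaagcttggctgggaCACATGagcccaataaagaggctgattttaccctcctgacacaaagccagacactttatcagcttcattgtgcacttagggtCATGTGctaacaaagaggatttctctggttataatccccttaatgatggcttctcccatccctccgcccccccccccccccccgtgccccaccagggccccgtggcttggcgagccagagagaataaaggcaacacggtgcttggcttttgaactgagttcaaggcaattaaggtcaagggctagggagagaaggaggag
The longest run around the hexamer that all 3 windows share was GTCATGTGCT, which lies within the extended E-box known as the M-box. It was taken from these 3 windows, so its presence in them is by choice. It starts 23 bases before the start of Tyr, 48 before that of Tyrp1 and 152 before that of Dct. Dct also held the hexamer on the other strand, 232 bases before its start. Oca2 held CATGTG only on the opposite strand, 186 bases before its start, and the 3 Mitf windows held it on neither strand. Searched on both strands of all 32851 windows, CATGTG was found in 14.2%, TCATGTG in 3.77%, GTCATGTGCT in 0.186% and CACGTG in 7.15%; the first 3 overlap each other. These matches describe letters in a window and were not tested as binding sites.

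The deposited values are log2 expression values, and a difference of 1 is a 2-fold change. Ptprc, which encodes CD45, lay between 11.51 and 12.90 on every array. Nrp1 RNA over all CD45+ cells lay between 8.93 and 10.24 on control arrays and between 7.75 and 9.43 on Nrp1-deleted ones, and within each tumour and day every Nrp1-deleted array was below every control array. The source of the remaining Nrp1 signal was not tested. By the distribution of their values the arrays fell into 3 sets (B16 day 18 with MC38 day 12; MC38 days 6 and 18; B16 early with day 12). Each genotype comparison lies within 1 set. Levels set across sets also carry the difference between sets, which was not separated from time or tumour. Since whole sorted populations were measured, fewer cells of a type and less RNA per cell cannot be told apart in any result below.

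Pigment transcripts were present in the B16 samples and lay at the low end of the scale in MC38. For the main probe sets of Tyr, Tyrp1, Dct, Mlana, Pmel, Slc45a2 and Rab38, every one of the 14 B16 arrays was above the highest of the 14 MC38 arrays. The share of all genes with this separation was not counted, and it crosses the sets of arrays. A dimmer Tyr probe set was as low as 2.79 on B16 arrays and as high as 3.05 on MC38 arrays. The dimmer Slc45a2 probe set likewise overlapped (3.03 and 3.47). Tyrp1 lay between 7.47 and 12.07 (median 10.06) on B16 arrays and between 2.38 and 2.84 (median 2.74) on MC38 arrays, where the median of all values in the table is 3.64. Dct ranged from 7.17 to 12.24 (median 9.48) in B16 and from 2.31 to 3.06 (median 2.75) in MC38. The gap between tumours was thus wider than the whole range within MC38 for both enzymes. Values this low cannot be told from background, so a fold change against MC38 describes the distance to the bottom of the scale. Oca2, which encodes a melanosomal transport protein, was above all MC38 arrays on 12 of 14 B16 arrays, and Sox10 on 10.

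The ranking of the 12 group means crosses the 3 sets of arrays, and the share of all genes highest in a given group was not counted. The control group of B16 day 18 had the highest mean of the 12 groups for all 10 genes. Tyr averaged 10.02 ± 0.35 (SD, n = 3) there, 7.37 ± 0.14 (n = 2) in control hosts at day 12, 7.16 ± 0.63 in early Nrp1-deleted, 6.85 ± 0.53 in early control, 6.50 ± 0.78 (n = 3) in day 18 Nrp1-deleted and 4.97 ± 0.80 in day 12 Nrp1-deleted hosts. From the second to the fifth of these, each group overlapped the next, so their order is not fixed. Slc45a2 averaged 9.27 ± 0.46 in day 18 control hosts, and the next 3 groups (early Nrp1-deleted 5.97, day 12 control 5.73 and early control 5.70) overlapped each other. Day 12 Nrp1-deleted hosts had the lowest B16 mean for all genes but Oca2, and for Sox10 those arrays (3.65 and 4.36) overlapped MC38 arrays (3.30 to 4.64).

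**Figure D1:**
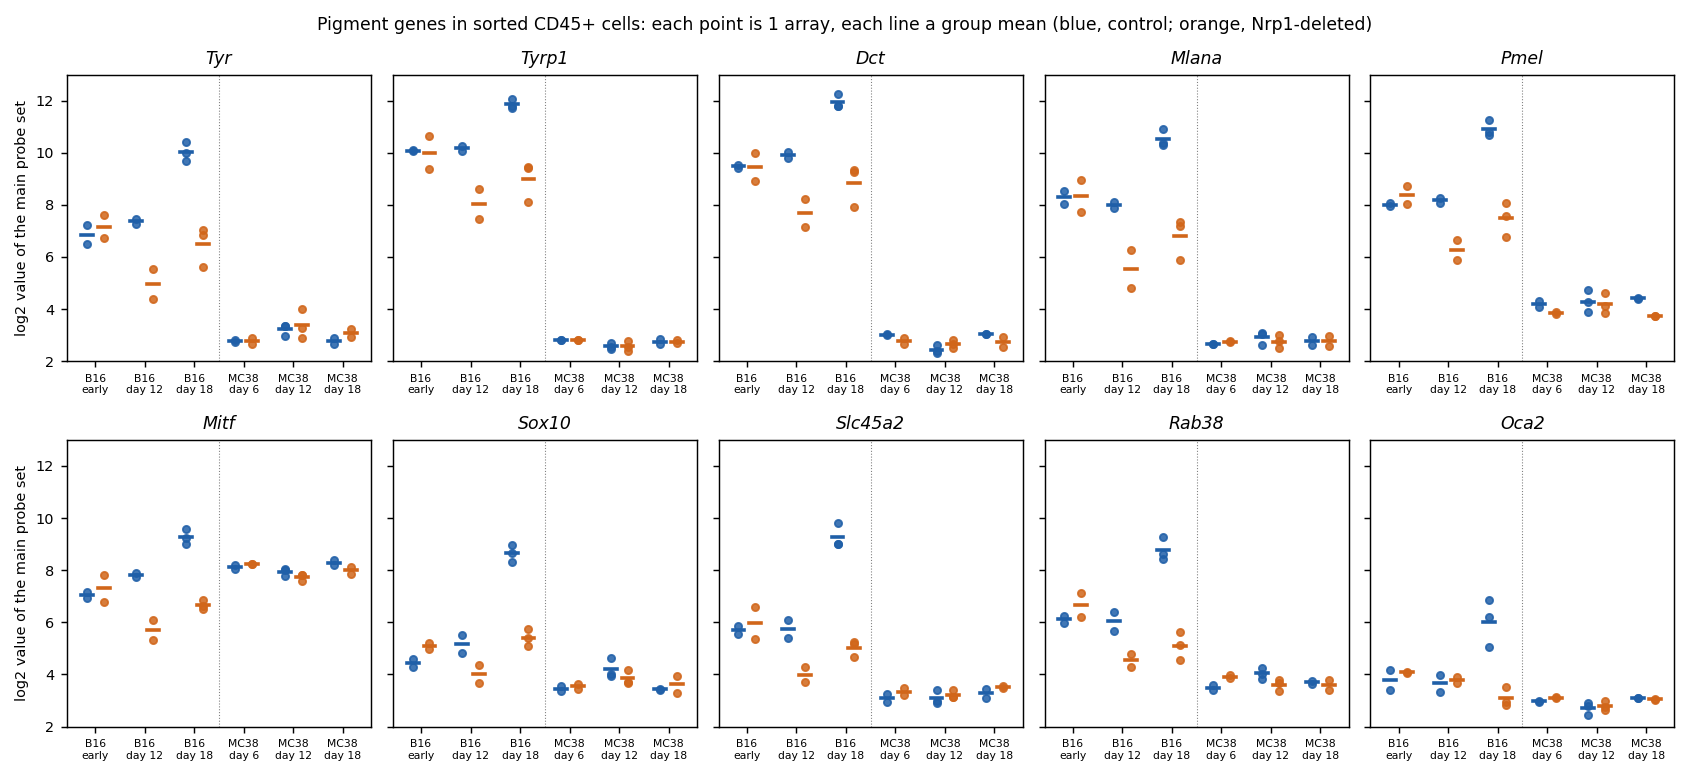
Log2 value of each pigment gene (one panel per gene) on each of the 28 arrays, by tumour and day; points are arrays, short lines are group means, blue is control and orange is Nrp1-deleted. Orange points lie below blue ones at B16 days 12 and 18 for all genes but Oca2 at day 12, and the MC38 points of all genes but Mitf lie at or below 4.72.

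Mitf stood apart from the other 9. On MC38 arrays it lay between 7.57 and 8.38 (median 8.05), and on B16 arrays between 5.33 and 9.59 (median 7.04). Only the 3 control arrays of B16 day 18 exceeded the highest MC38 array. In order of group means, B16 day 18 control (9.27) came first and B16 day 12 Nrp1-deleted (5.70) last, with the MC38 groups between 7.73 and 8.29. These levels are those of the main Mitf probe set. On the second, B16 day 18 control (mean 5.92, lowest 5.55) also came first but overlapped MC38 (highest 5.71). There, B16 day 12 control (5.35) lay above all MC38 group means but that of day 6 Nrp1-deleted (5.37). The mean log2 value of the 8 macrophage markers (Csf1r, Adgre1, Cd68, C1qa, C1qb, C1qc, Mrc1 and Mertk) was 10.63 to 11.43 on MC38 arrays and 5.96 to 9.76 on B16 arrays. The part of macrophages in the Mitf signal was not tested.

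The comparison of tumours within 1 set of arrays was B16 day 18 against MC38 day 12 in control hosts, 3 arrays each, so that day and tumour differ together. All 10 genes were higher in B16 (limma, adjusted over all genes), as were 15.8% of all genes. The median difference was 6.39 on the log2 scale, against -0.02 over all genes. Dct differed by 9.51 ± 0.30 (SE; adjusted p = 3.6e-16) and Tyrp1 by 9.28 ± 0.30 (3.6e-16). Mlana (7.60), Tyr (6.78), Pmel (6.63), Slc45a2 (6.16), Rab38 (4.74), Sox10 (4.45) and Oca2 (3.33) followed, and Mitf had the smallest difference, 1.33 ± 0.20 (adjusted p = 1.3e-05).

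At matched days the tumours lie in different sets. At day 18, all 10 were higher in B16 control hosts (11.3% of all genes were), while the median of all genes was lower by 0.25. At day 12, 9 of 10 were higher (35.3% of all genes were), with the median of all genes 0.25 higher, and Mitf differed by -0.12 ± 0.22 (adjusted p = 0.67). That holds for the main Mitf probe set only. The second one averaged 5.35 in B16 and 4.17 in MC38 control hosts at day 12. At that day Sox10 (0.96 ± 0.28) and Oca2 (0.96 ± 0.33) lost their calls under 3 other scalings, which gave 0.48 to 0.65 for Sox10 and 0.52 to 0.69 for Oca2. Oca2 also lost it without MC38 control replicate 1 or B16 control replicate 2, and Sox10 without B16 control replicate 1.

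**Figure D2:**
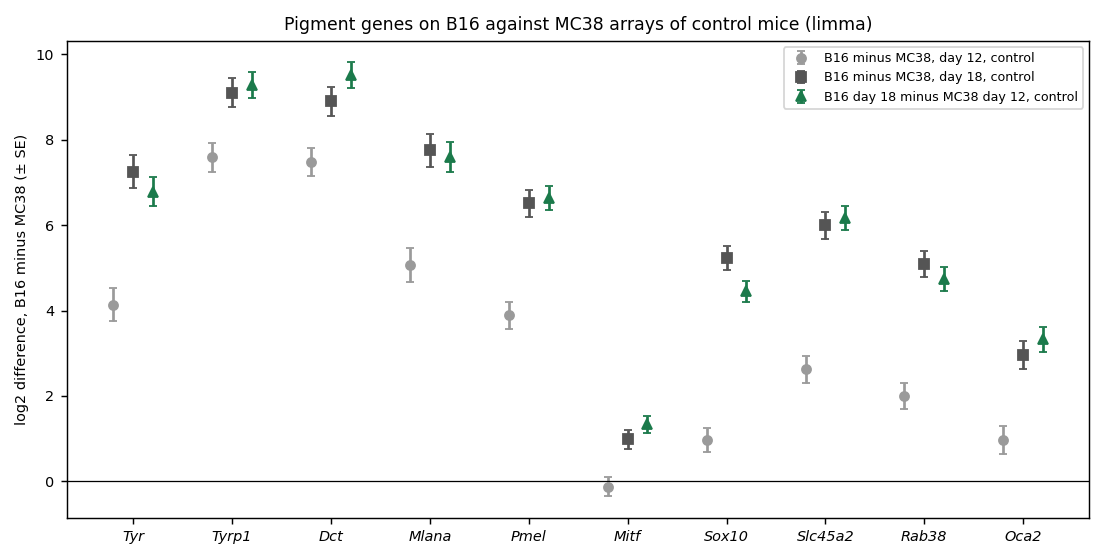
Log2 difference, B16 minus MC38, of each pigment gene in control hosts, with SE bars from limma; grey circles are day 12, dark squares day 18 and green triangles B16 day 18 against MC38 day 12, the pair within 1 set of arrays. Tyrp1 and Dct have the largest differences in all 3 comparisons, and Mitf lies at -0.12 at day 12.

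Pigment transcripts were lower in Nrp1-deleted than in control hosts at day 18 of B16 growth. Every Nrp1-deleted array was below every control array for all 10 genes, a pattern that 15.8% of all genes showed. All 10 also passed the test as lower, as did 11.3% of all genes, with a median difference of -3.34 against 0.00 over all genes.

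Among the enzymes, Tyr was 9.97, 10.40 and 9.70 on the control arrays and 7.03, 6.86 and 5.61 on the Nrp1-deleted arrays, a difference of -3.52 ± 0.34 (limma, adjusted p = 6.9e-08), or 11.5-fold lower. Tyrp1 was 11.79, 12.07 and 11.71 in control and 9.40, 9.47 and 8.12 in Nrp1-deleted hosts, lower by 7.25-fold. Dct was 11.81, 12.24 and 11.80 against 9.32, 9.26 and 7.91, lower by 8.66-fold. The third Nrp1-deleted array was the lowest of its group for all 3 enzymes, and still far above MC38 for Tyrp1 and Dct.

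Pmel, the fibril protein, was 10.67, 11.27 and 10.81 on control arrays and 8.08, 7.59 and 6.78 on Nrp1-deleted arrays (-3.43 ± 0.28, adjusted p = 4.3e-09). Mlana, a melanosomal membrane protein, was 10.38, 10.89 and 10.29 against 7.33, 7.18 and 5.88 (-3.73 ± 0.35, adjusted p = 4.4e-08). In both genes the lowest control array was more than 2 log2 units above the highest Nrp1-deleted array.

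Slc45a2, a melanosomal transporter needed for normal pigmentation, had the largest difference of the 10. It was 9.01, 9.80 and 8.99 in control hosts and 5.17, 5.25 and 4.66 in Nrp1-deleted hosts, -4.24 ± 0.28 (adjusted p = 3.7e-10), or 18.9-fold lower. Oca2, the other transport protein, was 6.19, 6.84 and 5.05 against 3.51, 2.96 and 2.84 (-2.92 ± 0.29, adjusted p = 1.1e-07). The Nrp1-deleted values of Oca2 lay in or near its MC38 range of 2.44 to 3.12, so its fold is limited by the bottom of the scale. Rab38, a small GTPase that carries cargo to melanosomes, was 8.44, 9.26 and 8.64 against 5.64, 5.11 and 4.57 (-3.67 ± 0.27, adjusted p = 1.8e-09).

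Both transcription factors were lower too. Mitf was 9.23, 9.59 and 8.99 in control hosts and 6.84, 6.64 and 6.52 in Nrp1-deleted hosts, -2.60 ± 0.20 (adjusted p = 2.4e-09), the smallest of the 10 differences at day 18. Sox10 was 8.67, 8.97 and 8.33 against 5.73, 5.40 and 5.10, -3.24 ± 0.25 (adjusted p = 2.4e-09). On the main probe sets, Mitf in Nrp1-deleted hosts was below all MC38 arrays, whereas Sox10 remained above them.

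At day 12 of B16 growth, 9 of the 10 genes were lower in Nrp1-deleted hosts (9.17% of all genes were), with a median of -2.01 against 0.04 over all genes. The same 9 had no overlap between groups of 2 arrays, as 24.1% of all genes had in that direction. Tyr was 7.27 and 7.47 in control and 4.40 and 5.54 in Nrp1-deleted hosts (-2.40 ± 0.42, limma adjusted p = 0.00019). Mlana was 7.87 and 8.11 against 4.83 and 6.28 (-2.43 ± 0.43, adjusted p = 0.00021). In both, the first Nrp1-deleted array was lower than the second by over 1 log2 unit, and both lay below the controls.

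Tyrp1 fell from 10.06 and 10.27 to 7.47 and 8.61, and Dct from 9.81 and 10.03 to 7.17 and 8.24. Pmel was 8.07 and 8.27 against 5.87 and 6.65 (-1.91 ± 0.34). Mitf, at 7.88 and 7.74 against 5.33 and 6.07, had the smallest adjusted p of the set at this day (-2.11 ± 0.24, adjusted p = 6.2e-07). These enzyme and structural genes and Mitf were called whichever of the 4 arrays was left out.

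Slc45a2 was 5.39 and 6.07 against 3.69 and 4.27 (-1.75 ± 0.34, adjusted p = 0.00064). Rab38 was 5.67 and 6.41 against 4.28 and 4.80 (-1.51 ± 0.34, adjusted p = 0.0022), and it missed the threshold without control replicate 2 (-1.14) or Nrp1-deleted replicate 1 (-1.25). Sox10 was 5.51 and 4.82 against 3.65 and 4.36 (-1.16 ± 0.30, adjusted p = 0.0085), and it missed the threshold without control replicate 1 (-0.82) or Nrp1-deleted replicate 1 (-0.81). Oca2 was 3.33 and 3.99 against 3.66 and 3.89 and did not pass the test (0.12 ± 0.36, adjusted p = 0.90). These values lay around the median of all values (3.64), which left little room for a fall.

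**Figure D3:**
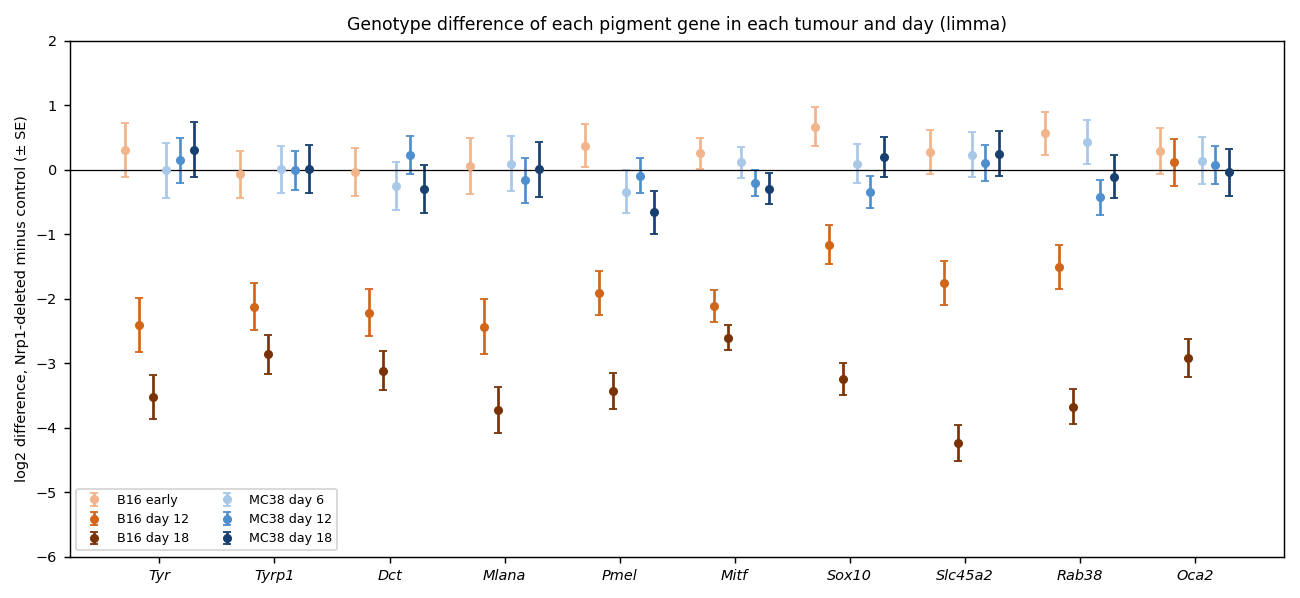
Log2 difference, Nrp1-deleted minus control, of each pigment gene in each tumour and day, with SE bars from limma; orange shades are B16 and blue shades MC38. At B16 day 18 all 10 genes lie between -4.24 and -2.60, and at B16 early and all MC38 days they lie between -0.66 and 0.67.

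In early B16 tumours no pigment gene passed the test (limma; 0 of 10, and 0.292% of all genes lower and 0.152% higher); 1 of 10, Sox10, had an unadjusted p under 0.05, as 9.41% of all genes did. The differences ranged from -0.07 (Tyrp1) to 0.67 (Sox10), with a median of 0.28. Tyrp1 was 10.06 and 10.09 in control and 10.64 and 9.37 in Nrp1-deleted hosts, and Dct 9.42 and 9.55 against 9.99 and 8.91. For both, the Nrp1-deleted arrays lay on either side of the controls. Sox10 was 4.28 and 4.58 against 5.20 and 4.98, the only one of the 10 whose groups did not overlap (21.2% of all genes had all Nrp1-deleted arrays above all controls). With 2 arrays a group the 95% confidence intervals were wide, from -0.84 to 0.69 for Tyrp1 and from -0.57 to 1.18 for Tyr. They rest on 1 spread per gene shared by all 12 groups, MC38 included. The SD of Tyrp1 was 0.90 in early Nrp1-deleted hosts and at most 0.20 in the MC38 groups. The intervals may therefore be too narrow for B16.

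In MC38 tumours no pigment gene passed the test (limma, 0 of 10) at day 6, day 12 or day 18 or in the mean over days, and none had an unadjusted p under 0.05. Of all genes 2.97%, 8.59% and 5.36% were called at those days. In the mean over the 3 days, 12.3% of all genes were lower and 6.97% higher. The pigment genes ranged from -0.36 (Pmel) to 0.20 (Slc45a2) with a median of -0.02. Their 95% confidence intervals together spanned -0.74 to 0.62. All Nrp1-deleted arrays were below all controls for 2 of 10 genes at day 6 (25.9% of all genes), 1 at day 12 (17.1%) and 4 at day 18 (32.6%), and above all controls for 4 at day 6 (16.2%), 0 at day 12 (8.38%) and 2 at day 18 (19.7%). Mitf and Pmel were the members whose MC38 arrays all lay above the median of all values in the table. The Mitf difference in the mean over days was -0.13, with an interval from -0.40 to 0.15, and its second probe set gave 0.55 (adjusted p = 0.057 over all probe sets). Pmel was 4.41 on both control arrays and 3.74 and 3.75 on the Nrp1-deleted arrays at day 18 (-0.66, adjusted p = 0.31).

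The genotype difference itself was compared between tumours and between days. In the mean over days it was lower in B16 than in MC38 for all 10 genes (7.22% of all genes were lower), by 1.22 (Sox10) to 2.10 (Slc45a2) for 9 of them. Oca2 had the smallest difference, -0.90 ± 0.28 (adjusted p = 0.031), and its call was lost when any one of 9 arrays was left out. Without the B16 day 18 arrays 6 of 10 remained called, and Pmel (-0.41), Sox10 (-0.23), Rab38 (-0.44) and Oca2 (0.14) did not pass. The MC38 medians of Tyr, Tyrp1, Dct, Mlana, Slc45a2 and Oca2 lay between 2.74 and 3.23, below the median of all values (3.64). A fall could hardly show there, so for these genes the comparison between tumours largely repeats the B16 difference.

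Within B16, the genotype difference at day 18 was lower than at the early day for all 10 genes (3.49% of all genes), from -2.79 ± 0.48 for Tyrp1 to -4.51 ± 0.44 for Slc45a2, and this held for 10 of 10 whichever array was left out. For day 12 against the early day it was lower for 9 of 10 (4.41% of all genes), from -1.83 for Sox10 to -2.71 for Tyr. That count rested on single arrays. It was 2 of 10, Pmel and Mitf, without Nrp1-deleted replicate 1 of either day, 4 without day 12 control replicate 2, 8 without day 12 control replicate 1, and 6 or 7 without early control replicate 1 or 2. With the mean over its probe sets, Sox10 was not called for day 12 against the early day (-0.64). Day 18 against day 12 was not tested.

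Early and day 12 B16 arrays share a set, so their levels could be compared directly. In Nrp1-deleted hosts 9 of 10 genes were lower at day 12 (7.09% of all genes were), all but Oca2 (-0.31, adjusted p = 0.69). Oca2 lay near the median of all values (3.64) on these arrays, which left little room for a fall. Mlana was lower by 6.94-fold and Mitf by 3.03-fold, and Dct (-1.74) and Sox10 (-1.09) lost the call without Nrp1-deleted replicate 1 of either day. Sox10 also lost it with the mean over its probe sets (-0.39). In control hosts the levels of 9 genes did not pass the test, with differences of -0.30 (Mlana) to 0.74 (Sox10). Mitf was higher at day 12 (7.88 and 7.74 against 7.17 and 6.92, 0.77 ± 0.24, adjusted p = 0.032; 9.14% of all genes were higher). It lost this call without any one of the 4 arrays (0.64 to 0.90). The second Mitf probe set lay between 5.28 and 5.42 at day 12 and between 4.03 and 4.32 early in control hosts. No test of it is given for this comparison. In MC38, day 18 against day 6 gave no call for any pigment gene in either genotype (limma, 0 of 10, none with an unadjusted p under 0.05; 8.94% of all genes were called in control and 1.94% in Nrp1-deleted hosts).

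The pigment genes varied together from array to array. Across the 14 B16 arrays, each gene centred within the early and day 12 arrays and within the day 18 arrays, the 45 pairwise Pearson correlations ranged from 0.748 to 0.994 with a median of 0.955. These arrays share 6 groups, so the correlations include the group differences and are given as a description. Within 3 of the 6 B16 groups all 10 genes differed in the same direction between replicates 1 and 2. In early Nrp1-deleted hosts replicate 1 was higher than replicate 2 for 10 of 10 genes (median 0.98), against 45.1% of all genes. In day 12 Nrp1-deleted hosts replicate 1 was lower for 10 of 10 (median -0.76), where 45.1% of all genes were higher on it, and in day 18 control hosts replicate 1 was lower than replicate 2 for 10 of 10 (median -0.47), where 62% of all genes were higher. In the other groups replicate 1 was higher for 4 of 10 genes in early control (median -0.07), 2 in day 12 control (median -0.21) and 8 in day 18 Nrp1-deleted hosts (median 0.18), against 55.8%, 53.8% and 49.8% of all genes. The macrophage markers did not follow in all of these. Their mean was 7.59 and 6.18 on the early Nrp1-deleted arrays and 5.96 and 6.57 on those of day 12, but 9.74 and 8.91 on replicates 1 and 2 of day 18 control.

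**Figure D4:**
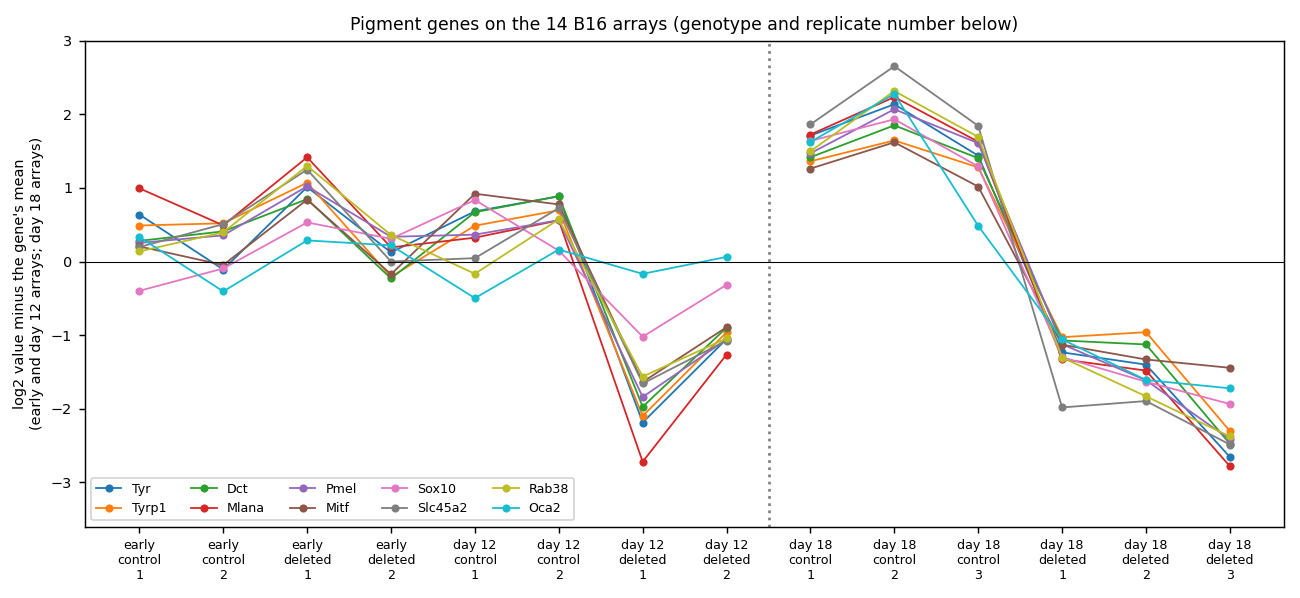
Log2 value of each pigment gene on the 14 B16 arrays, minus the gene's own mean over the early and day 12 arrays (left of the dotted line) or over the day 18 arrays (right); each colour is a gene and lines join its values. The lines run together except for Oca2 and, in part, Sox10 on the early and day 12 arrays, where Oca2 lay near the median of all values.

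Set against the mean of Tyr, Tyrp1, Dct, Mlana and Pmel on each array, Rab38 and Mitf (both r = 0.970), Slc45a2 (0.969), Sox10 (0.919) and Oca2 (0.795) followed in that order. On the 8 early and day 12 arrays alone Oca2 had r = 0.217 and Sox10 0.772. Oca2 lay between 3.33 and 4.16 on those arrays, near the median of all values (3.64). Among genes outside the set, the 10 most like it over the 14 arrays were Syt4 (r = 0.997), Cpe, Dag1, Fbln5, Car6, Syngr1, Serpinh1, Sparc, Laptm4b and Gsta2 (0.971). Without centring, 9 of these 10 were found again, and on the early and day 12 arrays alone 4 of 10. Syt4, which encodes a synaptotagmin of vesicle membranes, was 4.29 to 9.96 on B16 arrays and 2.63 to 3.61 on MC38 arrays, and its genotype differences were 0.24 (early), -2.21 (day 12) and -3.66 (day 18). Sparc, a secreted matrix protein, was 3.95 to 9.67 on B16 arrays and 5.85 to 8.89 on MC38 arrays.

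The further probe sets of 5 genes all gave negative differences at day 18, and all but 1 were called. Here p-values were adjusted over all probe sets. The second Tyrp1 probe set gave -2.12 at day 12 and -3.47 at day 18, and the second Mitf probe set -1.55 and -2.18, all called. The other Tyr probe sets were dimmer, with day 12 control means of 3.76 and 3.95, and gave -0.52 and -0.75 there (adjusted p = 0.20 and 0.097), then -3.57 and -3.83 at day 18. The dimmer Slc45a2 probe set likewise gave -0.69 at day 12 (adjusted p = 0.13) and -3.87 at day 18. Of the other Sox10 probe sets, 1 gave 0.30 at day 12 and -0.99 at day 18 (adjusted p = 0.0042). The last one lay between 2.67 and 3.51 on all arrays and gave -0.01 at day 18 (adjusted p = 0.98). Sox10 was thus called on 2 of its 3 probe sets at day 18, and on 1 of 3 at day 12 and in the B16 mean. In MC38 the second Mitf probe set gave 0.55 ± 0.20 in the mean over days (adjusted p = 0.057), opposite in sign to the main one, and 0.71, 0.46 and 0.49 at days 6, 12 and 18.

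Other genes of the pigment cell were taken from lists. Of 13 further melanocyte genes 12 were measured, and in the B16 mean over days 9 were lower and 1 higher in Nrp1-deleted hosts (median -1.09), where the pigment set gave 10 lower (median -1.67) and 12.3% of all genes were lower and 10.3% higher. Their counts were 0 at the early day (0.292% of all genes were lower and 0.152% higher), 5 lower and 1 higher at day 12 (9.17% and 7.8%), and 9 lower at day 18 (11.3%). Met, a receptor tyrosine kinase, differed by -2.18 in that mean, Cited1, a transcriptional coregulator, by -1.64, and the tetraspanin Tspan10 by -1.48. Gpnmb, a Pmel relative that macrophages also make, differed by -1.93 and Mcoln3, an endolysosomal channel, by 0.51. Gpr143, the melanosomal receptor, had no call at day 12 (-0.11, adjusted p = 0.89) and was lower at day 18 (-2.74).

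Of 13 lineage regulators and receptors 12 were measured, and 6 were lower and 1 higher in the B16 mean (12.3% and 10.3% of all genes; median -0.50). Mc1r, the melanocortin receptor, was lower at day 12 (-1.38) and day 18 (-3.22), and Ednrb, the endothelin receptor, by 1.56 and 1.81. Pax3, a transcription factor that acts on Mitf, was lower at day 18 (-3.41) but not called at day 12 (-0.77, adjusted p = 0.19). Kit, the receptor for stem cell factor, did not pass at any day and was 0.03 at day 18. Lef1, which T cells also express, was the one that rose (0.85), and Zeb2, which myeloid cells also express, fell (-0.65).

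The melanosome biogenesis and transport machinery, which other cells also use, was lower and higher in similar numbers in the B16 mean over days. Of 19 genes 18 were measured, with 6 lower and 4 higher in that mean (12.3% and 10.3% of all genes) and a median of -0.07. By day, their mean level was 7.16 to 7.18 on control and 7.11 to 7.18 on Nrp1-deleted arrays early. It was 7.42 to 7.44 against 7.03 to 7.11 at day 12, and 7.21 to 7.24 against 6.84 to 7.03 at day 18. Mreg (-1.72), Rab32 (-1.20), Myo5a (-0.81), Atp7a (-0.78), Mlph (-0.68) and Dtnbp1 (-0.31) were lower. Mlph, which links Rab27a to myosin Va, was lower at day 18 (-2.02) and not called at day 12 (-0.10, adjusted p = 0.82). Lyst (0.70), Rab27a (0.29), Bloc1s6 (0.22) and Ap3b1 (0.17) were higher. Of the 3 relatives of Mitf, Tfec (-3.42) and Tfe3 (-0.88) were lower at day 12 and none was called at day 18, where Tfec differed by -0.13 and Mitf by -2.60.

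Markers of other cells moved in the same comparisons. The 8 macrophage markers were all lower in Nrp1-deleted B16 hosts at day 12 (median -3.29; 9.17% of all genes were lower) and day 18 (median -1.78; 11.3%), and 1 of 8, Mrc1, was lower at the early day (0.292%). Their mean level was 9.69 and 9.76 on control and 5.96 and 6.57 on Nrp1-deleted arrays at day 12, and 8.91 to 9.74 against 7.44 to 7.95 at day 18. The macrophage median was thus larger in size at day 12 than at day 18, whereas each of the 10 pigment genes had its larger difference at day 18; day 18 against day 12 was not tested for either. Of the dendritic cell markers all 4 measured were lower at both days (medians -2.77 and -1.50). Of 4 monocyte and neutrophil markers measured, Csf3r (-2.26) and S100a9 (-2.60) were lower at day 12, and S100a8 (-2.89) and S100a9 (-3.24) at day 18. Their mean level was 8.54 to 9.08 on control and 6.65 to 7.20 on Nrp1-deleted arrays at day 12, and 7.70 to 8.69 against 5.92 to 8.03 at day 18, where the groups overlapped. Of 3 osteoclast markers measured, from cells that also use Mitf, Ocstamp was lower at day 12 (-1.61) and day 18 (-0.97), and the mean level was 5.97 to 6.05 against 5.34 to 5.36 at day 12. In MC38, 0 of 8 macrophage markers passed the test (limma) in the mean over days (median -0.22), where 12.3% of all genes were lower and 6.97% higher. Of the 8, 0 had an unadjusted p under 0.05 (30.5% of all genes did). At MC38 day 18 their mean level was 11.38 to 11.43 on control and 10.91 to 11.05 on Nrp1-deleted arrays. At days 6 and 12 the groups overlapped. The part of these cells in the pigment gene results was not tested.

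**Figure D5:**
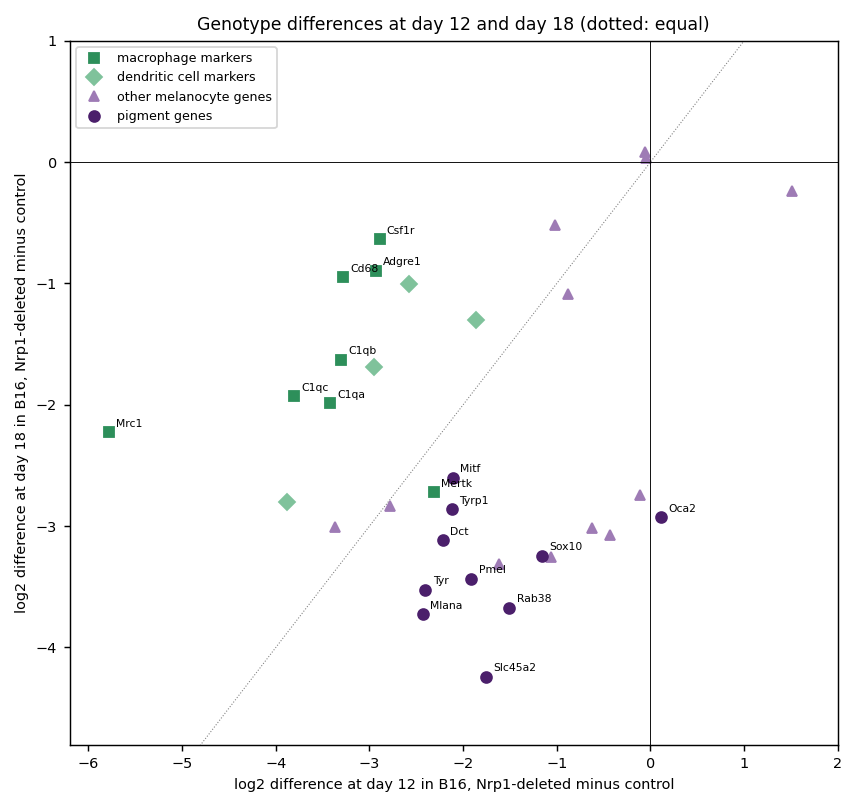
Log2 difference, Nrp1-deleted minus control, at B16 day 12 (horizontal) and day 18 (vertical) for pigment genes, other melanocyte genes and macrophage and dendritic cell markers; each symbol is a gene and the dotted line marks equal differences. All 10 pigment genes lie below the line, and 7 of 8 macrophage markers, all but Mertk, lie above it.

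T cell markers were higher in the B16 mean for 4 of 6 measured (median 0.69; 10.3% of all genes were higher), and Ptprc was higher at day 18 by 0.41. Both NK cell markers, Ncr1 (1.14) and Klrb1c (1.02), were higher at day 18 (7.54% of all genes were) and not called at day 12 (0.79 and 1.02, adjusted p = 0.18 and 0.12), with a mean level of 5.91 to 6.43 on control and 6.54 to 7.72 on Nrp1-deleted arrays at day 18. Of 7 mast cell markers, 4 were higher in the B16 mean (10.3% of all genes). The mean level of mast cell markers was 3.67 to 4.39 on control and 4.41 to 5.59 on Nrp1-deleted arrays at day 18, opposite to Mitf. Of 7 fibroblast markers, Col3a1 (-3.13) and Dcn (-1.38) were lower at day 18, with a mean level of 3.59 to 4.02 against 2.94 to 3.14. Of 5 endothelial markers, Kdr was lower at day 12 (-1.36), and at day 18 Vwf was lower (-1.02) and Pecam1, which leukocytes also carry, higher (0.75). Of 5 epithelial markers Epcam was higher at day 12 (1.22). Keratinocyte markers (Krt5, Krt14, Krt1 and Krt10) had no call in any B16 genotype comparison, and their mean level was 3.30 to 3.84 on the 14 B16 arrays. Of the 2 Schwann cell markers measured (these cells also use Sox10), Mbp was lower at day 18 (-2.90) and Egfl8 was not called (0.07). Melanocytes and melanoma cells are not known to carry CD45, and the arrays do not show which cells of the sorted populations held the pigment transcripts.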

How the data were processed

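Tumour-infiltrating CD45+ cells were sorted and lysed directly, and biotinylated cRNA was made by a two-cycle protocol and hybridised to Affymetrix arrays, per the labels' protocols. The authors deposited log2 expression values of 45141 probe sets on 28 arrays, and the submitters' processing notes name Partek 6.6 and RMA. Genes were named through the platform annotation: 28898 probe sets had 1 gene, 551 several and 15588 were unnamed here, and 104 control probe sets were left out. The probe set with the highest mean stood for each of 17097 genes. The 12 groups were fitted with limma 3.58.1 (R 4.3.3; lmFit and eBayes with an intensity trend), and p-values were adjusted by Benjamini-Hochberg over all genes, with a threshold of 0.05 for a call. The main fit was tested on simulated data for the genotype difference at B16 day 18. The alternative fits were not tested in this way. The number of arrays limits the precision. Each gene had 1 spread shared by all 12 groups, including MC38 groups at the bottom of the scale. For a gene that varied more in B16, the SE and p-values of B16 differences may then be too small. With only the compared groups in the fit, the B16 counts of called pigment genes were 0 early, 9 at day 12 and 10 at day 18. The genes and the lists were chosen with earlier results of these data known. Named were the 10 genes, the 10 most like them by correlation (among genes with a mean above the median of all values), and the list genes with the smallest adjusted p in the B16 mean plus those a result turned on. Alternatives were other scalings, probe set rules, array weights, fits of the compared groups alone, left-out arrays and a replicate block. Same-numbered arrays of both genotypes had deviations that correlated at -0.276 to 0.196, and no label pairs them, so no block was used. No detection calls were used, and no file or label names a genome build.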

Additional observations from a re-analysis of the deposited data

Results flagged for a closer look

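The genotype difference (Nrp1-deleted minus control, log2) of pigment genes differed between tumours or between days by a test of the difference itself (limma interaction contrasts, adjusted over all genes). Between tumours, B16 minus MC38 in the mean over days, it differed for Tyr (-2.02), Tyrp1 (-1.68), Dct (-1.68), Mlana (-2.01), Pmel (-1.29), Mitf (-1.36), Sox10 (-1.22), Slc45a2 (-2.10), Rab38 (-1.50) and Oca2 (-0.90). Between day 12 and the early day of B16 it differed for Tyr (-2.71), Tyrp1 (-2.05), Dct (-2.18), Mlana (-2.49), Pmel (-2.29), Mitf (-2.37), Sox10 (-1.83), Slc45a2 (-2.02) and Rab38 (-2.07), and of these only Pmel and Mitf were called whichever array was left out. Between day 18 and the early day it differed for Tyr (-3.83), Tyrp1 (-2.79), Dct (-3.08), Mlana (-3.79), Pmel (-3.81), Mitf (-2.86), Sox10 (-3.91), Slc45a2 (-4.51), Rab38 (-4.23) and Oca2 (-3.21). All 3 comparisons use some of the same arrays, so they are not independent of each other. In the comparison between tumours, Tyr, Tyrp1, Dct, Mlana, Slc45a2 and Oca2 lay near the bottom of the scale in MC38. A fall could hardly show there, so for these genes that comparison largely repeats the B16 difference.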

How the results depend on the processing

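Over 18 comparisons, 3390 checks of the 10 genes were made under other settings. In 3322 of them a gene kept its side of the threshold, and a called gene also its direction. Of the rest, 64 lost a call, 2 gained one and 2 reversed. A change of sign in a gene called in neither fit was not counted. The count of called genes was 6 for the B16 minus MC38 genotype difference without the B16 day 18 arrays, and Oca2 reversed there (0.14, adjusted p = 0.72) and in the B16 genotype mean (0.20, adjusted p = 0.51), which also lost Sox10 (-0.25) and Rab38 (-0.47). For day 12 against early in B16 control hosts the count of 1 was 0 with arrays centred on their 75th percentile and 2 with array weights or only the compared groups. With the mean over a gene's probe sets, Sox10 was not called at day 12 (-0.38). It was also not called for day 12 minus early, in the genotype difference (-0.64) or in Nrp1-deleted hosts (-0.39). Leaving out single arrays gave 10 to 10 for the B16 mean, B16 day 18, the day 18 minus early difference, and both B16 minus MC38 comparisons that use day 18; 7 to 9 for B16 day 12 and for day 12 minus early in Nrp1-deleted hosts; 9 to 10 for the genotype difference between tumours; 2 to 9 for day 12 minus early; 8 to 9 for B16 minus MC38 at day 12; and 0 to 0 for day 12 minus early in control hosts and all others. The replicate numbers do not pair the arrays; with the replicate block the counts were 10 for the B16 mean, 0 early, 9 at day 12, 10 at day 18 and 0 in MC38, and 10, 9 and 10 for the differences between effects. Over all genes the block gave 2493 calls at B16 day 12 against 2900 and 517 at MC38 day 18 against 917. Crossing the early B16 numbers, an alternative chosen after seeing the data, gave 119 genes in early B16 against 76, and 0 of the 10. All-gene counts over settings with all arrays ran from 15 to 271 in early B16, 2493 to 4943 at B16 day 12, 2141 to 6523 at B16 day 18, 104 to 1083 at MC38 day 6, 723 to 4289 at MC38 day 12 and 517 to 2011 at MC38 day 18; the highest counts at B16 days 12 and 18 and MC38 days 6 and 12 came from fitting all probe sets, where more features are tested. Scaling moved the share of calls that were higher from 80.5% to between 31.2% and 39.1% for B16 minus MC38 at day 12, from 24.4% to between 31.2% and 51.1% at day 18, from 48.3% to 35.7% (cyclic loess) or 61.3% (75th percentile) for the genotype difference between tumours, and with the 75th percentile from 43.3% to 28.8% at MC38 day 12, from 58.2% to 40% at MC38 day 18, from 56.9% to 45.9% for day 12 minus early in control hosts and from 49.2% to 60.8% for MC38 day 18 minus day 6 in control hosts. The causes were not tested.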
